A study of Mus musculus with 3 samples.

Results

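The macrophage C1q and Fc receptor genes followed here are 10 in number: C1qa, C1qb, C1qc, Tyrobp, Fcer1g, Fcgr1, Fcgr3, Csf1r, Cd68 and Adgre1. Each of the 10 was read from its only probe set annotated to a single gene symbol, so 10 of 10 were measured among 19938 genes in all. They were picked by name, for what their products do, and with earlier results of these data known. Their shares beside those of all genes are therefore descriptions and not a test of the set. The study concerned the marrow stromal cells that make the chemokine CXCL12, on which hematopoietic stem cells depend, and set sorted stromal populations side by side at baseline on 3 single-colour Affymetrix arrays. CAR (CXCL12-abundant reticular) cells came from 2 CXCL12-GFP knock-in mice, with 1 array for each mouse. The other array, labelled PDGFRa+ Sca+ CD45- lineage- and called PaS here, held cells combined from 3 mice of the genotype Prx1-Cre Rosa26Ai9/+ Cxcl12gfp/+, in which the Prx1 limb mesenchyme promoter drives Cre and Ai9 is a Cre reporter. Both groups carry a GFP allele at Cxcl12, both came from tibia, femur and pelvis, and the age of the mice is not given in the sources used here. Genotype and cell type differ together and cannot be told apart, and the pool on the PaS array has no replicate.

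C1q is the recognition unit of the classical complement pathway, a bundle of A, B and C chains that are needed together and that tissue macrophages make. Fc receptors bind the constant part of antibodies. Many of them carry no signalling motif of their own and rely on the adaptor FcR gamma, encoded by Fcer1g, while Tyrobp encodes DAP12, the matching adaptor of other activating receptors; both adaptors carry an ITAM, a tyrosine motif that recruits the kinase Syk. Macrophages, neutrophils, NK cells and mast cells share these adaptors, whereas the C1q chains, CSF1R and the high-affinity receptor FcgammaRI are more typical of monocytes and macrophages.

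The arrays were checked against their labels. All 15 markers of CAR stroma were higher on the CAR arrays (limma adjusted p under 0.05), against 0 lower at this threshold or at an unadjusted p under 0.05. Pdgfra and Ptprc went against the label of the PaS array, which is therefore called the array labelled PaS. Pdgfra, the gated receptor, had log2 intensities of 7.52 and 7.97 in CAR cells against 4.33, and Ptprc, which encodes the excluded antigen CD45, had 5.11 and 5.01 in CAR cells against 8.27. Most markers of Sca-1+ fibroblasts went with that label: of 11 measured, 7 were lower in CAR cells and 0 higher (limma adjusted p under 0.05; 9 and 0 at an unadjusted p under 0.05). Pi16 and Clec3b missed the adjusted threshold (log2 differences -0.92 and -0.77, limma adjusted p = 0.0839 and 0.130). Lum (0.21) and Cd248 (0.06) did not pass either and did not go with the label. Dpt, a matrix protein gene, had 2.60 and 2.27 in CAR cells against 8.10, and Thy1, a surface antigen gene, had 3.56 and 3.69 against 7.67. The medians over genes were 3.74, 3.75 and 3.77 log2 units on CAR array 1, CAR array 2 and the array labelled PaS, and their 95th percentiles were 6.69, 6.93 and 6.16. No detection calls were used, so a value near or below the median cannot be told from background. The number of arrays limits the precision, and errors are the limma fit's, which takes its spread from the CAR arrays alone and assumes that the PaS array varies like them.

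Of the 10 genes, 4 were lower in CAR cells and 0 were higher, relative to the array labelled PaS (limma, Benjamini-Hochberg adjusted p under 0.05; 7 lower and 0 higher at an unadjusted p under 0.05). These 4 were the adaptor genes Tyrobp and Fcer1g, the low-affinity Fc receptor gene Fcgr3 and the C1q chain gene C1qc, with differences of 4.47-fold to 8.09-fold. Over all genes, 6.42% were lower in CAR cells by the adjusted rule and 8.56% were higher. At an unadjusted limma p under 0.05, 3595 of the 19938 genes were lower in CAR cells and 3409 were higher. The median log2 difference of the 10 genes, CAR minus PaS, was -1.10, beside -0.10 over all genes. In bulk samples such as these, fewer cells of a type and less RNA per cell cannot be told apart.

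**Figure D1:**
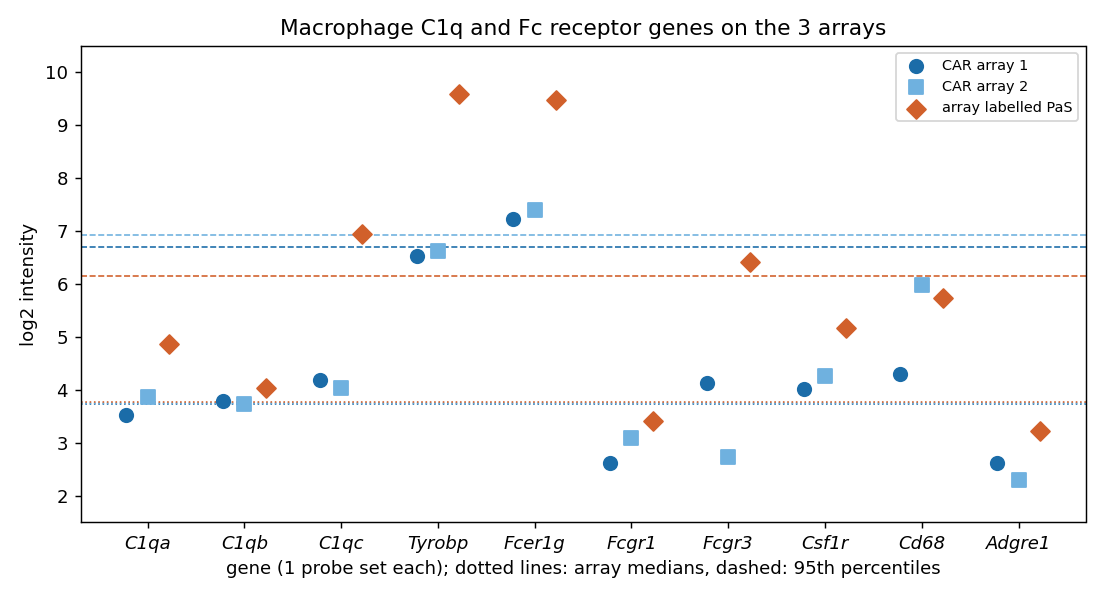
Log2 intensity (vertical axis) of the 10 genes (horizontal axis) on CAR array 1 (circles), CAR array 2 (squares) and the array labelled PaS (diamonds); 1 point is 1 array, dotted lines are the medians over all genes of each array and dashed lines their 95th percentiles. Tyrobp, Fcer1g, C1qc and Fcgr3 lie above the 95th percentile on the array labelled PaS, Fcgr1 and Adgre1 lie below the median on all 3 arrays, and Cd68 is the gene whose CAR points lie on both sides of the PaS point.

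Both CAR arrays lay below the array labelled PaS for 9 of the 10 genes, beside 46.8% of all genes. Cd68 was the exception. A difference of at least 2-fold in both CAR arrays was found for 5 of the 10, namely C1qa and the 4 genes that passed the test, beside 8.92% of all genes.

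The C1q chains are encoded by adjacent genes: in the RefSeq annotation C1qb, C1qc and C1qa follow each other on chromosome 4 with no other protein-coding gene between them. C1qc had log2 intensities of 4.20 and 4.05 in CAR cells against 6.95 on the array labelled PaS, or linear intensities of 18.3 and 16.5 against 123.7. The CAR arrays lay close together and far below the other array. C1qc was 7.11-fold lower in CAR cells (log2 difference -2.83 ± 0.28, SE; limma adjusted p = 0.0126), a size that is not exact because its CAR values lay only a little above the array medians.

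C1qa, the A chain gene, had 3.53 and 3.86 log2 units in CAR cells against 4.87 on the array labelled PaS. Both CAR values were lower by at least 2-fold, with a mean log2 difference of -1.17 ± 0.30 (SE) that missed the threshold in limma (adjusted p = 0.0608; unadjusted p = 0.0112). It passed in 4 of the 7 alternative fits, among them quantile normalization, where the log2 difference was -1.46 (limma adjusted p = 0.00875). C1qb, the B chain gene, had 3.78 and 3.73 log2 units in CAR cells against 4.04. Its 3 values all lay near the array medians, and its log2 difference of -0.29 had a 95% interval of -0.997 to 0.421 (limma adjusted p = 0.508).

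The 3 C1qb values and the CAR values of C1qa lay near the array medians, where signal cannot be told from background. How well the C1qb probe set responds to its RNA was not tested. The sizes of the differences were therefore not compared between the chains, and the probe sequences behind each value were not used here.

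The stretches of 250 bases before the start of some of these genes are shown because they come from adjacent or related genes of which one passed the test and the other did not, C1qc beside C1qb and Fcgr3 beside Fcgr1, with Fcer1g for an adaptor. They are RefSeq sequences of build GRCm38.p6, written 5′ to 3′ along the gene, and capitals mark GAGGAA or its reverse complement TTCCTC, the core letters bound by PU.1, the ETS factor encoded by Spi1 that macrophages need.
C1qb, chr4:136886201-136886450, minus strand: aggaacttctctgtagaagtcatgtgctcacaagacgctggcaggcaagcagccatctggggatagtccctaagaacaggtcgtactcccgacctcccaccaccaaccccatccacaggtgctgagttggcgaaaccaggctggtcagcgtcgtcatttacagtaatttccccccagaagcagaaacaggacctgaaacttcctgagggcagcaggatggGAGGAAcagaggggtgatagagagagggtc
C1qc, chr4:136892915-136893164, minus strand: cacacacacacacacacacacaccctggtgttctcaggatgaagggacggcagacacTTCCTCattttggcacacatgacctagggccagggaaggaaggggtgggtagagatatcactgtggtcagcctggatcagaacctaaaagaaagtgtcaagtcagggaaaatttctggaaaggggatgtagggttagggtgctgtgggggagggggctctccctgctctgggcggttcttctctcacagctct
Fcer1g, chr1:171234350-171234599, minus strand: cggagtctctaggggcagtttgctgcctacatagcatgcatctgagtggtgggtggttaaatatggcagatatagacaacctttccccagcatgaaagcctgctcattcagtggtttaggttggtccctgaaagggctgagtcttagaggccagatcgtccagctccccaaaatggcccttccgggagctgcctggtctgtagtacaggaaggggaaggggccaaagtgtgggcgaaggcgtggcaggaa
Fcgr1, chr3:96293970-96294219, minus strand: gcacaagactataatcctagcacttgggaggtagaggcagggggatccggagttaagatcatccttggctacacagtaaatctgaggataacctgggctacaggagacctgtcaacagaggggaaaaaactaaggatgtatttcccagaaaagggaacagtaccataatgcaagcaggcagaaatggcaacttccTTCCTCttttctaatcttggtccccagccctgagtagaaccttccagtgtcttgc
Fcgr3, chr1:171059404-171059653, minus strand: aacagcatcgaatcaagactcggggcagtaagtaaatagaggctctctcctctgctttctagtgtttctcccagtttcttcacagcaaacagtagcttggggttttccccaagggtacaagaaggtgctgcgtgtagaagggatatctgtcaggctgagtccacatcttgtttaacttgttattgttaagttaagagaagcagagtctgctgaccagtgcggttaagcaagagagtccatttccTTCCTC
A window was found for 6 of the 10 genes (Cd68 is the sixth), and 5 of these 6 held the letters on one strand, against 23.3% of 32851 windows of the same length. The match lay 30 bases before the start in C1qb and 193 in C1qc, 55 in Fcgr1 and 6 in Fcgr3, for which the first listed of its starts was taken. The windows with a match thus belong to genes that passed the test (C1qc, Fcgr3) and to genes that did not (C1qb, Fcgr1, Cd68), and the window of Fcer1g, which passed, holds none. A match describes letters only, shorter and other forms of the site were not searched, and factor binding was not measured.

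Both ITAM adaptor genes had signal far above the median of all genes on every array. Tyrobp had log2 intensities of 6.53 and 6.63 in CAR cells against 9.60 on the array labelled PaS, that is, linear intensities of 92.2 and 99.3 against 773.8. Its CAR values lay at the 94.3 and 93.4 percentiles of their arrays. The difference was 8.09-fold (log2 difference -3.02 ± 0.28, SE; limma adjusted p = 0.0116). Fcer1g had 7.24 and 7.40 log2 units in CAR cells against 9.48, above the 95th percentile on every array. It was 4.47-fold lower in CAR cells (log2 difference -2.16 ± 0.28, SE; limma adjusted p = 0.0189). The gene next to Tyrobp on chromosome 7, Hcst, which encodes the related adaptor DAP10, had 4.13 and 3.65 log2 units in CAR cells against 5.03 and missed the threshold (limma adjusted p = 0.0763).

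Of the Fc receptors, Fcgr3, which encodes the low-affinity receptor FcgammaRIII, had 4.13 and 2.73 log2 units in CAR cells against 6.41 on the array labelled PaS. Both CAR values were lower, but they lay 1.41 log2 units apart, a gap that 0.853% of all genes reached or passed. The mean log2 difference was -2.98 ± 0.60 (SE; limma adjusted p = 0.0380), and the CAR arrays taken singly gave -2.28 and -3.68. The value on CAR array 2 lay below the array median, where it cannot be told from background, so the size of the difference is not exact.

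Fcgr1, which encodes the high-affinity receptor FcgammaRI (CD64), had 2.63 and 3.10 log2 units in CAR cells against 3.41. All 3 values lay below the array medians, and the log2 difference of -0.54 had a 95% interval of -1.38 to 0.30 (limma adjusted p = 0.299). Fcgr3 and the inhibitory receptor gene Fcgr2b share much of their extracellular sequence, so their probe sets may share signal and their values are uncertain to that extent. Fcgr2b had 3.21 and 2.64 log2 units in CAR cells against 4.22 and missed the threshold (limma adjusted p = 0.0665).

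**Figure D2:**
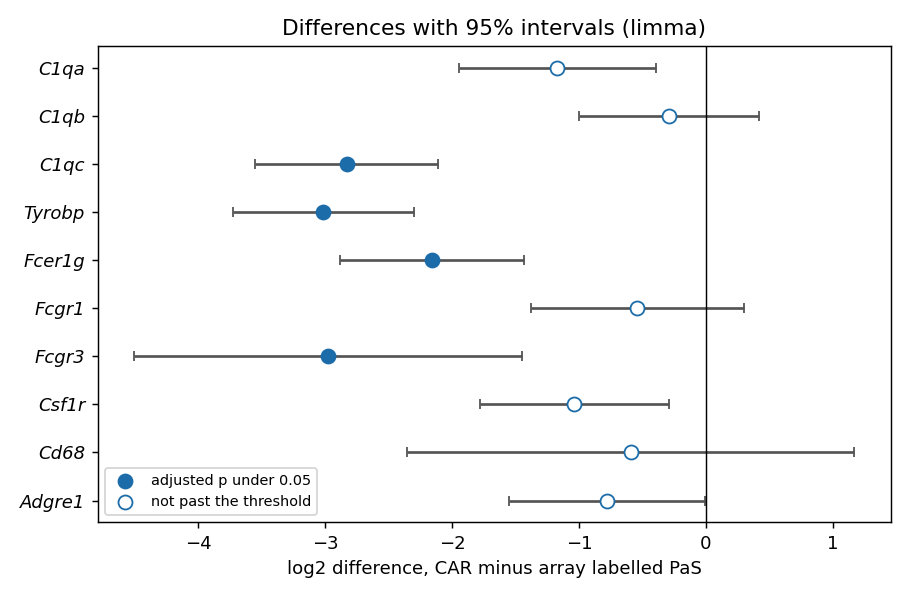
Log2 difference, CAR minus the array labelled PaS (horizontal axis), for each of the 10 genes (vertical axis) with its 95% interval from limma; filled points passed an adjusted p under 0.05 and open points did not. The 4 filled points lie between -3.02 and -2.16, and the intervals of C1qb, Fcgr1 and Cd68 cross 0.

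Csf1r, the receptor through which the cytokines CSF1 and IL-34 maintain macrophages, had 4.02 and 4.26 log2 units in CAR cells against 5.18 on the array labelled PaS. The CAR values lay close together and lower, and the log2 difference of -1.04 ± 0.29 (SE) missed the threshold (limma adjusted p = 0.0720), though it passed after quantile normalization (log2 difference -1.41, limma adjusted p = 0.00839). Its neighbour on one side in the annotation, Pdgfrb, a receptor of perivascular stroma, differed the other way, with 8.68 and 8.93 log2 units in CAR cells against 4.12 (limma adjusted p = 0.0081).

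Adgre1 encodes F4/80, the surface antigen used to mark mouse macrophages. It had 2.61 and 2.29 log2 units in CAR cells against 3.23 on the array labelled PaS, below the median of all genes on every array, and missed the threshold (log2 difference -0.78 ± 0.30, SE; limma adjusted p = 0.139). The low end of all values differed between the arrays in the same direction: the CAR arrays had 5th percentiles of 1.87 and 1.69 log2 units, against 2.40 on the array labelled PaS. Its part in the value of Adgre1 was not tested.

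Cd68 encodes a lysosomal glycoprotein of phagocytes. It had 4.31 and 5.98 log2 units in CAR cells against 5.74, so the CAR arrays fell on either side of the array labelled PaS. Their gap of 1.68 log2 units was reached or passed by 0.346% of genes, and the log2 difference of -0.59 ± 0.69 (SE) did not pass (limma adjusted p = 0.584). With CAR array 1 left out it was 0.24, and with CAR array 2 left out -1.43. Cd68 and Fcgr3 were the genes of the 10 with the widest gaps between CAR arrays, in opposite directions: CAR array 2 was the higher one for Cd68 and the lower one for Fcgr3. For the other 8 genes the gap ran between 0.06 and 0.47 log2 units, beside a median gap of 0.27 over all genes.

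**Figure D3:**
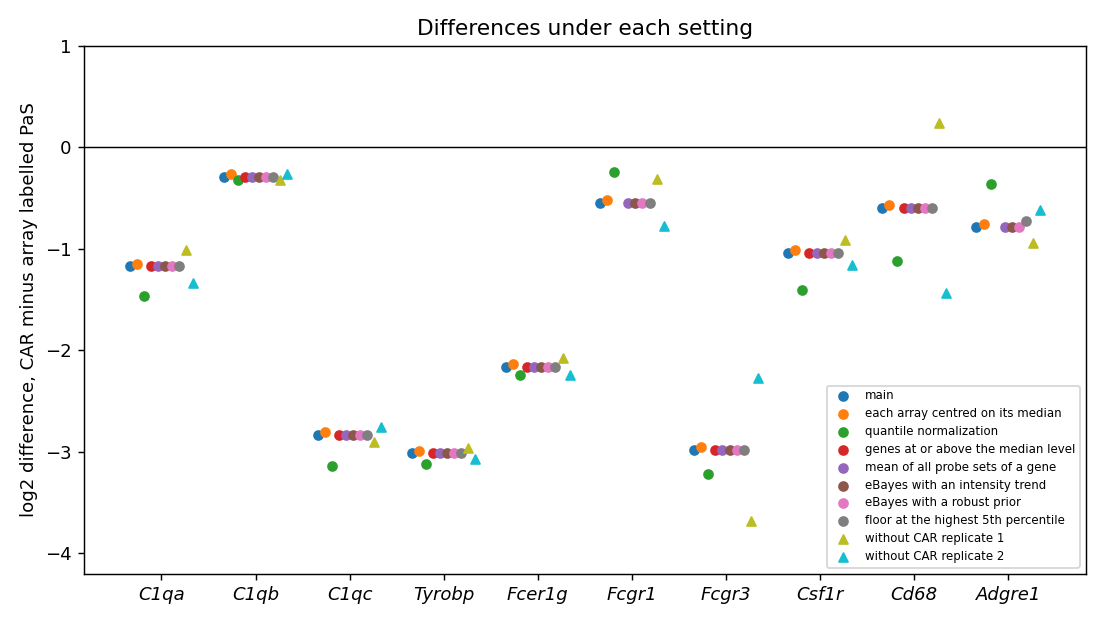
Log2 difference, CAR minus the array labelled PaS (vertical axis), for each of the 10 genes (horizontal axis) under the main setting, 7 alternative fits (circles) and with either CAR array left out (triangles, no test). Tyrobp, Fcer1g and C1qc move little, Fcgr3 spans -3.68 to -2.28, and Cd68 changes sign when CAR array 1 is left out.

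Genes whose products act with C1q gave more calls higher in CAR cells than lower. Of 17 measured partners and receptors of C1q, 4 were higher in CAR cells and 1 was lower (limma adjusted p under 0.05), with a median log2 difference of 0.24. By the same rule 8.56% of all genes were higher and 6.42% lower, so 1 lower gene of 17 does not exceed the share over all genes. C1s1, which encodes a protease of the C1 complex, had 7.10 and 6.99 log2 units in CAR cells against 3.94 on the array labelled PaS. The complement component gene C4b (log2 difference 3.44), the C1 inhibitor gene Serping1 (3.28) and Lrp1, an endocytic receptor (2.40), were also higher. Itgam, the alpha chain of complement receptor CR3, was the gene that was lower, with 4.98 and 4.14 log2 units in CAR cells against 6.88. C1ra, the partner protease of C1s, had 5.56 and 5.66 in CAR cells against 5.35 (limma adjusted p = 0.560), and Vsig4, a complement receptor of tissue macrophages, had 2.57 and 2.08 in CAR cells against 2.08 (limma adjusted p = 0.650).

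Among 14 other Fc receptor genes, 3 were lower in CAR cells and 1 was higher, with a median log2 difference of -0.67. After quantile normalization the median was -0.41. Over all genes 6.42% were lower and 8.56% higher, so 1 higher gene of 14 does not exceed the share over all genes. The 3 lower genes were Fcrl5 (-1.83), Fcmr (-1.59) and Fcrl1 (-1.32), Fc receptor relatives of B lymphocytes. On the CAR arrays Fcrl5 and Fcrl1 lay below the median, at 2.49 and 1.75 for Fcrl5 against 3.95 on the array labelled PaS, and at 2.46 and 2.27 for Fcrl1 against 3.69. Trim21, a cytosolic antibody receptor present in many cell types, was higher, with 5.11 and 5.26 log2 units in CAR cells against 2.95. The IgE receptor chains Fcer1a and Ms4a2, which pair with Fcer1g on mast cells, lay below the median on every array, at 2.39 and 2.06 in CAR cells against 3.02 for Fcer1a and 2.32 and 2.08 against 2.64 for Ms4a2.

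Of 17 measured receptors that signal through Tyrobp or Fcer1g or belong to their families, 6 were lower in CAR cells and 0 higher (limma adjusted p under 0.05; 13 and 0 at an unadjusted p under 0.05), with a median log2 difference of -1.19. Clec5a, a DAP12-coupled lectin of myeloid cells, had 1.97 and 1.55 log2 units in CAR cells against 4.73 on the array labelled PaS. Clec4d (-2.42) and Trem3 (-1.74), also myeloid receptors, were lower, as were Clec4n (-1.64) and Siglech (-1.64), a lectin of plasmacytoid dendritic cells. Clec4n lay below the median on all 3 arrays, at 1.68 and 1.84 in CAR cells against 3.40. So did Cd200r4, also counted as lower, at 1.60 and 1.32 in CAR cells against 2.80. Such values cannot be told from background. Trem2, the DAP12-coupled receptor of tissue macrophages, had 4.93 and 4.57 in CAR cells against 4.09 and did not pass (limma adjusted p = 0.198).

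Downstream of the ITAM, 16 signalling genes were measured, which include kinases and adaptors and also a GTPase and a phosphatase. Of these 16, 7 were lower in CAR cells and 0 higher (limma adjusted p under 0.05, with 10 and 0 at an unadjusted p under 0.05). Their median was -1.16. Btk, a kinase of B and myeloid cells, had 2.70 and 2.53 log2 units in CAR cells against 5.96 on the array labelled PaS. Rac2, a GTPase of leukocytes (-2.42), the B cell linker Blnk (-2.29) and the phosphatase gene Ptpn6 (-1.90) were lower as well. Syk, the kinase recruited by the ITAM, had 3.54 and 3.18 in CAR cells against 4.55 and missed the threshold (limma adjusted p = 0.0609).

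The ligands of Csf1r were higher in CAR cells. Csf1 had 9.33 and 9.37 log2 units in CAR cells against 5.11 on the array labelled PaS (log2 difference 4.24; limma adjusted p = 0.00863), and Il34 had 6.42 and 7.29 against 3.66 (log2 difference 3.20; limma adjusted p = 0.0195). In the list of this axis and of macrophage transcription factors, 4 of 17 genes were higher in CAR cells, Csf1 and Il34 with Maf (1.69) and Cebpa (1.44), and 5 were lower. Those 5 were Spi1 (-2.24), which encodes PU.1, and the cytokine receptor genes Csf2ra (-2.11), Csf3r (-2.05), Csf2rb (-1.90) and Csf2rb2 (-1.33). The median of the list was -0.25.

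Of 39 other genes known from macrophages, 19 were lower in CAR cells and 1, the phagocytic receptor gene Mertk (1.93), was higher, with a median of -1.32. The largest differences were those of Ptprc (-3.21), the leukocyte integrin chain Itgb2 (-2.88), the lysosomal gene Laptm5 (-2.52) and the NADPH oxidase subunit Ncf1 (-2.50), all of which neutrophils express too. The mannose receptor gene Mrc1 had 3.43 and 3.71 log2 units in CAR cells against 5.92 on the array labelled PaS (limma adjusted p = 0.0182), and Cd163 had 2.39 and 2.45 against 3.80 (limma adjusted p = 0.0383). For Cd163 the value on the array labelled PaS lay near the array median and the CAR values below theirs, where signal cannot be told from background. Siglec1, an adhesion receptor of marrow macrophages, had 4.44 and 3.40 in CAR cells against 3.87 (limma adjusted p = 0.947). Cd5l (-1.06), Timd4 (-0.30) and Marco (-0.16) did not pass either, with limma adjusted p of 0.0673 for Cd5l, 0.535 for Timd4 and 0.712 for Marco.

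**Figure D4:**
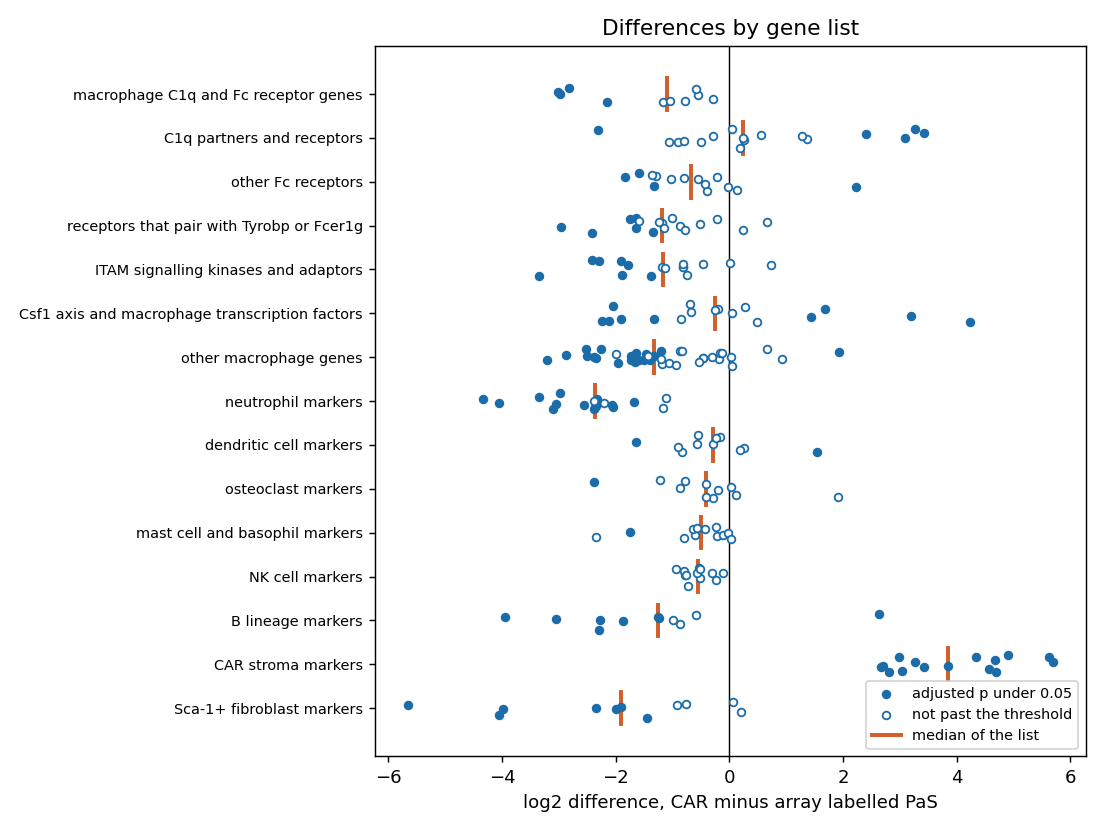
Log2 difference, CAR minus the array labelled PaS (horizontal axis), of every measured gene of each list (vertical axis); filled points passed a limma adjusted p under 0.05, open points did not, and vertical bars are list medians. The medians are -1.10 for the macrophage C1q and Fc receptor genes, -2.37 for neutrophil markers, -1.25 for B lineage markers, -0.56 for NK cell markers and 3.84 for CAR stroma markers. After quantile normalization they are -1.43, -2.53, -1.29, -0.19 and 3.52 in the same order (not drawn).

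Markers of neutrophils, which use the same adaptors, were lower in CAR cells as well. Of 18 measured neutrophil markers, 14 were lower in CAR cells and 0 higher (limma adjusted p under 0.05; 16 and 0 at an unadjusted p under 0.05), with a median of -2.37. Their summed linear intensity was 3531 and 3225 in CAR cells against 18698 on the array labelled PaS, and none of the listed genes is at 0 in these values. Camp (-4.33), Ly6g (-4.06), Mmp8 (-3.35) and Ltf (-3.11), genes of granules and of the neutrophil surface, led the list. The 10 macrophage C1q and Fc receptor genes summed to 352.5 and 414.5 in CAR cells against 1850. The part of neutrophil RNA in the differences of Tyrobp, Fcer1g and Fcgr3 was not tested.

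Lists of the remaining candidate cells were read in the same way. Of 11 B lineage markers, 7 were lower in CAR cells and 1 higher, with Rag1 (-3.96) and Cd79b (-3.05) lower, Ebf1 (2.63) higher, and sums of 554.2 and 456.8 in CAR cells against 678.4. Ebf1 carried most of the CAR sums, and without it they were 153.0 and 123.2 in CAR cells against 619.3. Of 12 NK cell markers, 0 passed in limma (4 lower and 0 higher at an unadjusted p under 0.05), and all 12 lay below the median on all 3 arrays, with sums of 85.1 and 71.2 against 112.8. At that unadjusted limma threshold 3595 of all 19938 genes were lower and 3409 higher. Of 12 mast cell and basophil markers 1 was lower, Hdc (-1.74), of 11 osteoclast markers 1 was lower, Mmp9 (-2.38), which is also listed for neutrophils, and of 11 dendritic cell markers 1 was lower, Siglech, and 1 higher, Bst2 (1.55). Beside these counts, 6.42% of all genes were lower and 8.56% higher (limma adjusted p under 0.05). The medians of the mast cell and basophil, osteoclast and dendritic cell lists were -0.50, -0.40 and -0.28, the last of which changed sign to 0.04 after quantile normalization. That setting moved the NK cell median from -0.56 to -0.19 and the mast cell and basophil median to -0.23. The osteoclast median moved the other way, to -0.56. The low end of all values was lower on the CAR arrays, with 5th percentiles of 1.87 and 1.69 against 2.40. Its part in the medians of lists with low values was not tested. The summed intensities were 152.2 and 136.2 in CAR cells against 277.7 for mast cells and basophils, 211.4 and 228.9 against 306.8 for osteoclasts, and 188.9 and 202.1 against 168.5 for dendritic cells. Single genes set the direction of both of the last sums: without Mmp9 the osteoclast markers summed to 180.0 and 207.2 in CAR cells against 171.1, and without Bst2 the dendritic cell markers summed to 105.6 and 91.3 against 135.7. The 11 markers of Sca-1+ fibroblasts summed to 445.6 and 646.3 in CAR cells against 2259. The part of these cells in the differences was not tested.

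The genes whose 3 values most resembled the mean pattern of the 10 were sought among 9605 other genes at or above the median level, by the Euclidean distance between values centred on each gene's own mean. The mean pattern was -0.57 and -0.46 log2 units on CAR arrays 1 and 2 against 1.03 on the array labelled PaS. The 6 nearest genes were Ticrr, Aurka, Cenps, Krt79, Lgals3 and Ppih, at distances of 0.011 to 0.039 log2 units. Ticrr, a DNA replication factor gene, had 3.32 and 3.41 log2 units in CAR cells against 4.92. Aurka, which encodes a mitotic kinase, had 4.44 and 4.58 against 6.05, and Lgals3, which encodes the macrophage lectin galectin-3, had 4.23 and 4.36 against 5.79. With 3 arrays many genes share such a pattern, and the likeness is a description only.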

How the data were processed

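Total RNA of sorted mouse marrow cells was amplified with a NuGEN kit and hybridised as biotin-labelled cDNA, per the labels' protocols. The values deposited by the authors are linear intensities, 1 per probe set, made with Affymetrix Expression Console and RMA per the submitters' processing notes; the sources used here give neither versions nor a genome build. Values were converted to log2 without a pseudocount, since every one was above 0. Of 35556 probe sets, 21789 carried 1 gene symbol, 1621 several and 12146 none here. For 21698 probe sets the gene identifier was matched. The brightest probe set stood for a gene, which gave 19938 genes.

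CAR (2 arrays) and PaS (1 array) were grouped by the labelled cell type and compared with limma 3.58.1 in R 4.3.3 (lmFit, eBayes, two-sided, Benjamini-Hochberg over all genes, threshold 0.05), with 1 residual and 4.20 prior degrees of freedom. The CAR arrays come from separate mice. The PaS pool came from other mice of another genotype, so no pairing was used. The 10 genes, the 14 lists and the rules were chosen with earlier results of these data known. Named genes are the 10, up to 4 per list with the largest difference among those past the test, the genes behind a count of 5 or fewer, and the 6 nearest in pattern. Fcgr2b, Fcer1a, Ms4a2, C1ra, Hcst, Syk, Trem2, Cd200r4, Mrc1, Cd163, Siglec1, Cd5l, Timd4, Marco, Vsig4, Pdgfra and the neighbour Pdgfrb were named after their values were seen. So were Pi16, Clec3b, Lum and Cd248. Alternatives were centring, quantile normalization, a filter at the median level, averaging a gene's probe sets, an intensity trend or a robust prior in eBayes, a floor at the highest 5th percentile, and leaving out either CAR array; list sums without 1 gene were added after seeing the data. Protein motifs were not analysed here.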

Additional observations from a re-analysis of the deposited data

How the results depend on the processing

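No paired analysis was possible because the 2 groups come from different mice. The count of 4 of the 10 genes lower in CAR cells was 4 to 6 in all alternative fits but the floor. With values below 2.40 log2 units raised to that floor, limma called 0 of the 10 (5 lower and 0 higher at an unadjusted p under 0.05) and 0 of all genes in either direction (3799 lower and 2629 higher at an unadjusted p under 0.05). By its construction the floor gave 2500 genes identical CAR values, and the prior degrees of freedom were 0.55 instead of 4.20; the members' log2 differences that passed in the main setting were the same under the floor, with adjusted p between 0.0758 and 0.258. Over all 19938 genes, 1281 were lower and 1706 higher in the main setting, and 2533 were lower and 2824 higher after quantile normalization. With a filter that kept the 9969 genes at or above the median level, 510 were lower and 2062 higher. The median over the 10 genes was -1.43 after quantile normalization and -1.67 over the 8 genes that such a filter keeps, where Fcgr1 and Adgre1 drop out, and -1.38 to -0.97 with either CAR array left out, settings in which 5 to 7 genes were at least 2-fold lower. With each array centred on its median, that count over both CAR arrays was 4 instead of 5, since C1qa drops out, and it was 6 after quantile normalization. Apart from Cd68 (0.24 without CAR replicate 1), the sign of each of the 10 was kept in every setting run. C1qa passed in 4 and Csf1r in 1 of 7 alternative fits, and C1qb, Fcgr1, Cd68 and Adgre1 in none of theirs (6 for Fcgr1 and Adgre1). The median of the other Fc receptors was 0.32 over the 2 genes that pass the filter, and that of dendritic cell markers 0.0423 after quantile normalization; the cause of these changes of sign was not tested. Without detection calls, signal over background limits the reading of Fcgr1, Adgre1, C1qb and other values near or below the array medians.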
